A study of Mus musculus with 5 samples.

Results

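Translation initiation and elongation factors were followed in mouse bone marrow-derived macrophages through 24 h of lipopolysaccharide (LPS), a bacterial cell wall component that macrophages sense through the receptor TLR4. The members were taken by name, as genes whose symbol starts with Eif and a digit from 1 to 6 or with Eef and 1 or 2, leaving out the Eif2ak kinases. They numbered 61 of the 13339 genes listed. The name rule uses no measured value, but the set was chosen with earlier results of these data known. Of the 5 libraries, 4 came from cells given LPS at 100 ng/ml for 4, 8, 12 or 24 h, and the last is labelled 0 h. All 5 were made from marrow of 8-week-old C57BL/6 mice, grown for 5 days with the growth factor M-CSF, and all titles carry the prefix WT2. Each time was 1 library, so nothing separates time in LPS from time in culture or from the variation between cultures, and no test was possible. The sources used here give neither the sex nor the number of mice behind a library.

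Initiation factors bring the small ribosomal subunit, the initiator tRNA and the messenger RNA together at a start codon. The complex eIF4F binds the cap of the messenger and unwinds its leader, eIF3 forms a scaffold on the small subunit, and eIF2 delivers the initiator tRNA and is recharged by the exchange factor eIF2B. During elongation eEF1A brings each charged tRNA to the ribosome and eEF2 moves the ribosome along by a codon. Several of these factors, like ribosomal proteins, are encoded by messengers that begin with a terminal oligopyrimidine (TOP) tract, an unbroken stretch of C and T letters in the DNA, through which mTOR and the protein LARP1 control their translation and stability. In LPS-stimulated macrophages translation is known to be adjusted through mTOR, the MNK kinases and phosphorylation of eIF2.

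The sequences around the start sites of 10 members are shown because Eef1a1 and Eef1b2, both known as TOP messengers, had the lowest differences of all members at 24 h. Each line gives 60 bases of the coding strand, 30 before and 30 from the annotated start, from the RefSeq promoter table (GRCm38.p6), which held 46 of the 61 members. Capitals mark the longest run of C and T where it reached 8 letters. The 5 factors at the top are the members of the TOP list, 9 factors known as TOP messengers mainly from work on human cells, that were in that table. Eif3k and Eif3l follow, both called lower at 4 h and at 24 h. Then come Eif2s1, Eif4g1 and Eif5, which were not lower in the stimulated libraries by 2-fold at any time.
Eef1a1 (chr9:78481695-78481754, minus strand): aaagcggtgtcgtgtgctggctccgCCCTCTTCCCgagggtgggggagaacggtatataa
Eef2 (chr10:81176601-81176660, plus strand): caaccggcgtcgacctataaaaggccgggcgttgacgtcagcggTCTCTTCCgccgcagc
Eif3f (chr7:108934385-108934444, plus strand): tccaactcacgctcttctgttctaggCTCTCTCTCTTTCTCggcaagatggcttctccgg
Eef1b2 (chr1:63176801-63176860, plus strand): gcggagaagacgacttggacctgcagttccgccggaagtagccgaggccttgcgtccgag
Eif4b (chr15:102073743-102073802, plus strand): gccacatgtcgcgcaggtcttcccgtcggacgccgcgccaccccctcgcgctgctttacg
Eif3k (chr7:28981859-28981918, minus strand): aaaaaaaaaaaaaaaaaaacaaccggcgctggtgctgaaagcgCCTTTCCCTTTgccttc
Eif3l (chr15:79075193-79075252, plus strand): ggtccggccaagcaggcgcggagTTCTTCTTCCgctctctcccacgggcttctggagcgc
Eif2s1 (chr12:78862042-78862101, plus strand): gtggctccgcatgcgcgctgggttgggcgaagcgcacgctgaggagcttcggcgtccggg
Eif4g1 (chr16:20672697-20672756, plus strand): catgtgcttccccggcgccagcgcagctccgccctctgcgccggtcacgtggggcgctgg
Eif5 (chr12:111538071-111538130, plus strand): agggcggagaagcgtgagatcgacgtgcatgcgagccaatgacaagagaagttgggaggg
Such a run was found for 3 of the 5 TOP-list genes, Eef1a1, Eef2 and Eif3f, and for 11 of the other 41 members in the table. Those 11 include Eif2b5, Eif2s3x, Eif2s3y, Eif4e and Eif4enif1, which were not 2-fold lower at any time. Eif2b2, Eif3k, Eif3l and Eif3m, which were 2-fold lower at some time, are also among them, as are Eef1a2 and Eef2k, which averaged under 1 FPKM. The 10 sequences shown are thus a selection. Counted by annotated start on the coding strand, 16 of 60 windows of members held one (26.7%), against 22.9% of all 32851 windows in the table. Counted by gene, a run was present for 36 of the 66 cytosolic ribosomal protein genes that were matched. The share was 25.8% of all genes in the table and 25.9% of those over 1 FPKM on average. The members outside the TOP list, at 26.8%, lay near these shares. A run is a description of these letters: the start used in macrophages may lie elsewhere, and its absence says only that the letters are not in this window. The Eef1a1 run begins 5 bases before the annotated start, and its window ends in tatataa, the letters of a TATA box, an element found upstream of starts. That run is therefore not shown to be the TOP tract of the Eef1a1 messenger.

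Values are FPKM, read fragments corrected for transcript length and for the fragments mapped in each library, as the authors deposited them. A difference is that of log2(FPKM + 1), later library minus the earlier one, and a member is called higher or lower where it reaches 2-fold on that scale. Only genes averaging 1 FPKM or more across the 5 libraries were called, namely 57 of the 61 members and 9795 genes in all. The median of these 9795 genes lay at -0.70, -0.49, -0.35 and -0.11 relative to 0 h in the 4, 8, 12 and 24 h libraries, so the members are set beside it. The difference also went with transcript length, and therefore the main differences are also given after centring each library on its median gene and after removing the length trend. These scalings matter most at 4 h, where the direction of 22 of 57 members turned from below to above 0 h by centring and of 26 by removal of the length trend. At 24 h it turned for 3 and 6 members. Of all these, Eif2b2 and Eif3h at 4 h had been past 2-fold. From the spacing between low values, libraries held an estimated 18.8 to 19.2 M reads each. At that depth the 95% Poisson interval, which covers counting error only, spanned a median of 5.06% to either side of the values of the 57 members over the filter, and at most 27.8% (Eif4ebp3 at 12 h). Of their 285 values 10 had intervals wider than 20% to a side, and for members under the filter the interval reached 178% (Eef1a2 at 24 h). All 8 macrophage markers checked were above 1 FPKM in every library, among them Csf1r at 199.5 to 636 FPKM. Although 1 protocol field of the labels speaks of dendritic cells, 4 or 5 of the 7 dendritic markers listed were under 1 FPKM in each library, with a summed level of 15.1 to 46.4 FPKM, and the defining markers Flt3, Zbtb46, Xcr1 and Clec9a stayed under 1. Most of that sum was Itgax, which macrophages also express, at 43.96, 30.8, 18.3, 15.02 and 4.65 FPKM across 0, 4, 8, 12 and 24 h, and Ccr7, at 1.2, 4.82, 14.8, 11.5 and 9.13. The 7 neutrophil markers listed summed to 339, 321, 253.5, 179.9 and 58.8 FPKM across 0, 4, 8, 12 and 24 h, with S100a8 and S100a9 holding most of it. Of the rarer ones Mpo was listed at 0 at 24 h, against 4.79 FPKM at 0 h, while Ly6g went the other way, with 3.71 against 0.12. Their part in the differences described here was not tested. In such bulk RNA a loss of cells of some type and less RNA per cell cannot be told apart.

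At 24 h 5 of 5 elongation factors and 7 of 13 eIF3 subunits were at least 2-fold below 0 h as deposited, beside 14.5% of all genes. With the length trend removed 4 of 5 and 2 of 13 were, beside 10.1%. At 4 h the medians of these 2 roles, -0.84 and -0.81, lay near the -0.70 of all genes. The subunits of eIF2B and the eIF4E-binding proteins Eif4ebp1 and Eif4ebp2 had their lowest values at 4 h and were within 2-fold of 0 h at 24 h. Eif4g2 and Eif1a were the members at least 2-fold higher at 4 h. The median level over the 57 members was 50.6, 29.2, 29.8, 31.4 and 29.3 FPKM across 0, 4, 8, 12 and 24 h. Of these members 37 had their highest value at 0 h, and 5 had their lowest value there, namely Eif4e, Eif4g1, Eif4g2, Eif2s1 and Eif6. The lowest value fell at 4 h for 21 members, at 8 h for 2, at 12 h for 13 and at 24 h for 16.

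At 4 h against 0 h, 2 of 57 members were called higher (3.51%), where 12.2% of all genes were, and 18 were called lower (31.6%), where 38.1% of all genes were. The members' median difference was -0.68, beside -0.70 for all genes, so at 4 h they stood about where all genes did. Centring turned the split of 2 higher and 18 lower into 6 and 5 (all genes 21.5% and 13.4%), and removal of the length trend turned it into 4 and 3 (19.8% and 12.0%). At 8 h against 0 h 1 member was higher (12.0% of all genes were) and 16 were lower (28.1%, beside 28.9% of all genes), a share near that of all genes. The split was 4 and 6 in centred libraries (18.0% and 14.9% of all genes), and removal of the length trend gave 3 and 4 (17.8% and 13.3%). At 12 h against 0 h 1 was higher (12.3% of all genes) and 19 were lower (33.3%, beside 21.5% of all genes). Here the split was 2 and 9 in centred libraries (16.5% and 12.9%), and removal of the length trend gave 2 and 6 (16.0% and 10.3%). At 24 h against 0 h no member was at least 2-fold higher, where 11.3% of all genes were, and 16 were at least 2-fold lower (28.1%), where 14.5% of all genes were. Their median of -0.45 at 24 h compares with -0.11 for all genes, and 13 members were lower in centred libraries (12.6% of all genes higher and 12.3% lower) and 8 with the length trend removed (11.8% and 10.1%). At 24 h against 4 h, 10 members were higher (17.5%, beside 25.0% of all genes) and 3 were lower (5.26%, beside 8.19%). That split was 1 higher and 8 lower in centred libraries (9.65% and 15.3% of all genes), and removal of the length trend gave 2 and 9 (9.48% and 15.2%).

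**Figure D1:**
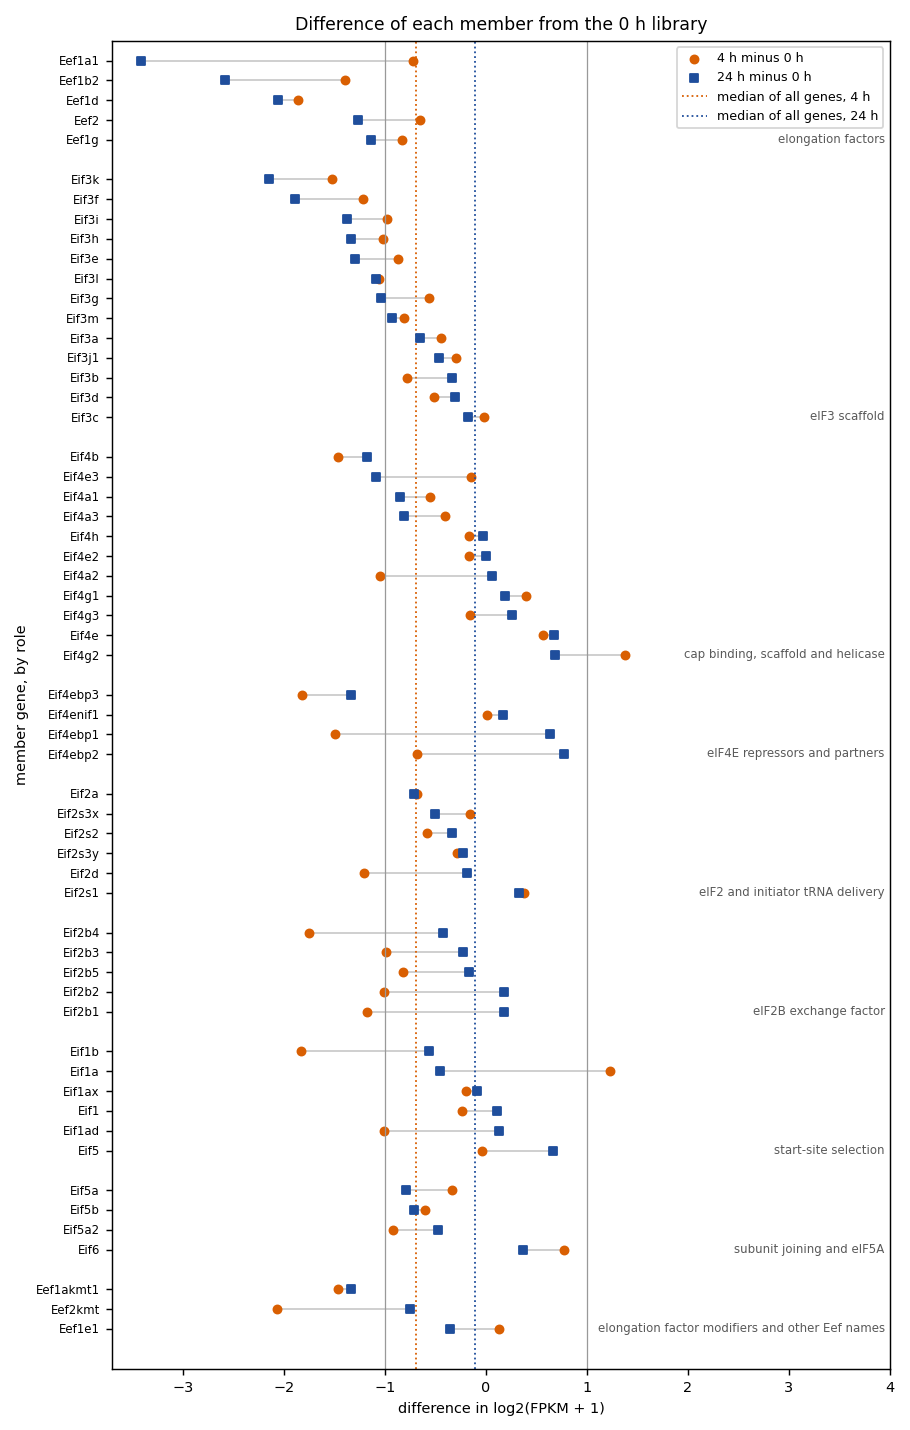
Difference of each of the 57 members over the filter from the 0 h library, in log2(FPKM + 1), at 4 h (circles) and 24 h (squares), by role, with grey lines at a 2-fold difference and dotted lines at the median of all genes. The 5 elongation factors lie left of -1 at 24 h, whereas Eif4g2 and Eif1a are right of 1 at 4 h; values are not centred, and with libraries centred or the length trend removed the median of all members at 4 h (-0.68) turns to 0.01 or 0.11.

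The elongation factors formed the most abundant role and the one with the lowest median difference at 24 h. Eef1a1 (gene 13627, chromosome 9, 78478453 to 78481724 in GRCm38), which encodes the main form of eEF1A, had 4387, 2655, 2123, 1902 and 409 FPKM across 0, 4, 8, 12 and 24 h. The 24 h value was 0.215 times that of 12 h. At 4 h it lay below 0 h by -0.72, and by -0.03 in centred libraries, but above by 0.29 with the length trend removed, while at 24 h the difference was -3.42, -3.31 and -3.09. Eef1a1 alone was 0.0841% of the summed FPKM at 24 h and 0.845% at 0 h. It has many near-identical processed copies in mammalian genomes, so reads may be divided among them and its level is uncertain to that extent. Eef2, the translocase, had 675, 429, 297, 322 and 279 FPKM across 0, 4, 8, 12 and 24 h, a level of 0.413 times that of 0 h at the end. Most of that distance was covered by 8 h.

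The exchange complex that reloads eEF1A with GTP is built from the products of Eef1b2, Eef1d and Eef1g. Eef1b2 had 162.9, 61.5, 45.6, 42.4 and 26.2 FPKM across 0, 4, 8, 12 and 24 h, lower in each later library than in the one before. Eef1d stood at 61.3 FPKM at 0 h and within 13.9 to 17.6 in the other 4 libraries, so its low level was already there at 4 h. Its difference of -1.86 at 4 h was -1.17 in centred libraries and -1.11 with the length trend removed. Eef1d overlaps the gene Tigd5 on the genome, and strand-aware counting is not given in the sources used here. Eef1g had 210 FPKM at 0 h and 117 to 120 at 4, 8 and 12 h, with 94.6 at 24 h. At 24 h all 5 of these elongation factors were called lower relative to 0 h, beside 14.5% of all genes, with a median difference of -2.06 (-1.95 in centred libraries, and -2.003 with the length trend removed, where Eef1g was within 2-fold). At 4 h 2 of 5 were lower, beside 38.1% of all genes, and the median of -0.84 was -0.14 in centred libraries but turned to 0.11 with the length trend removed. The sum of the 5 came to 5496, 3279, 2601, 2404 and 823 FPKM across 0, 4, 8, 12 and 24 h.

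**Figure D2:**
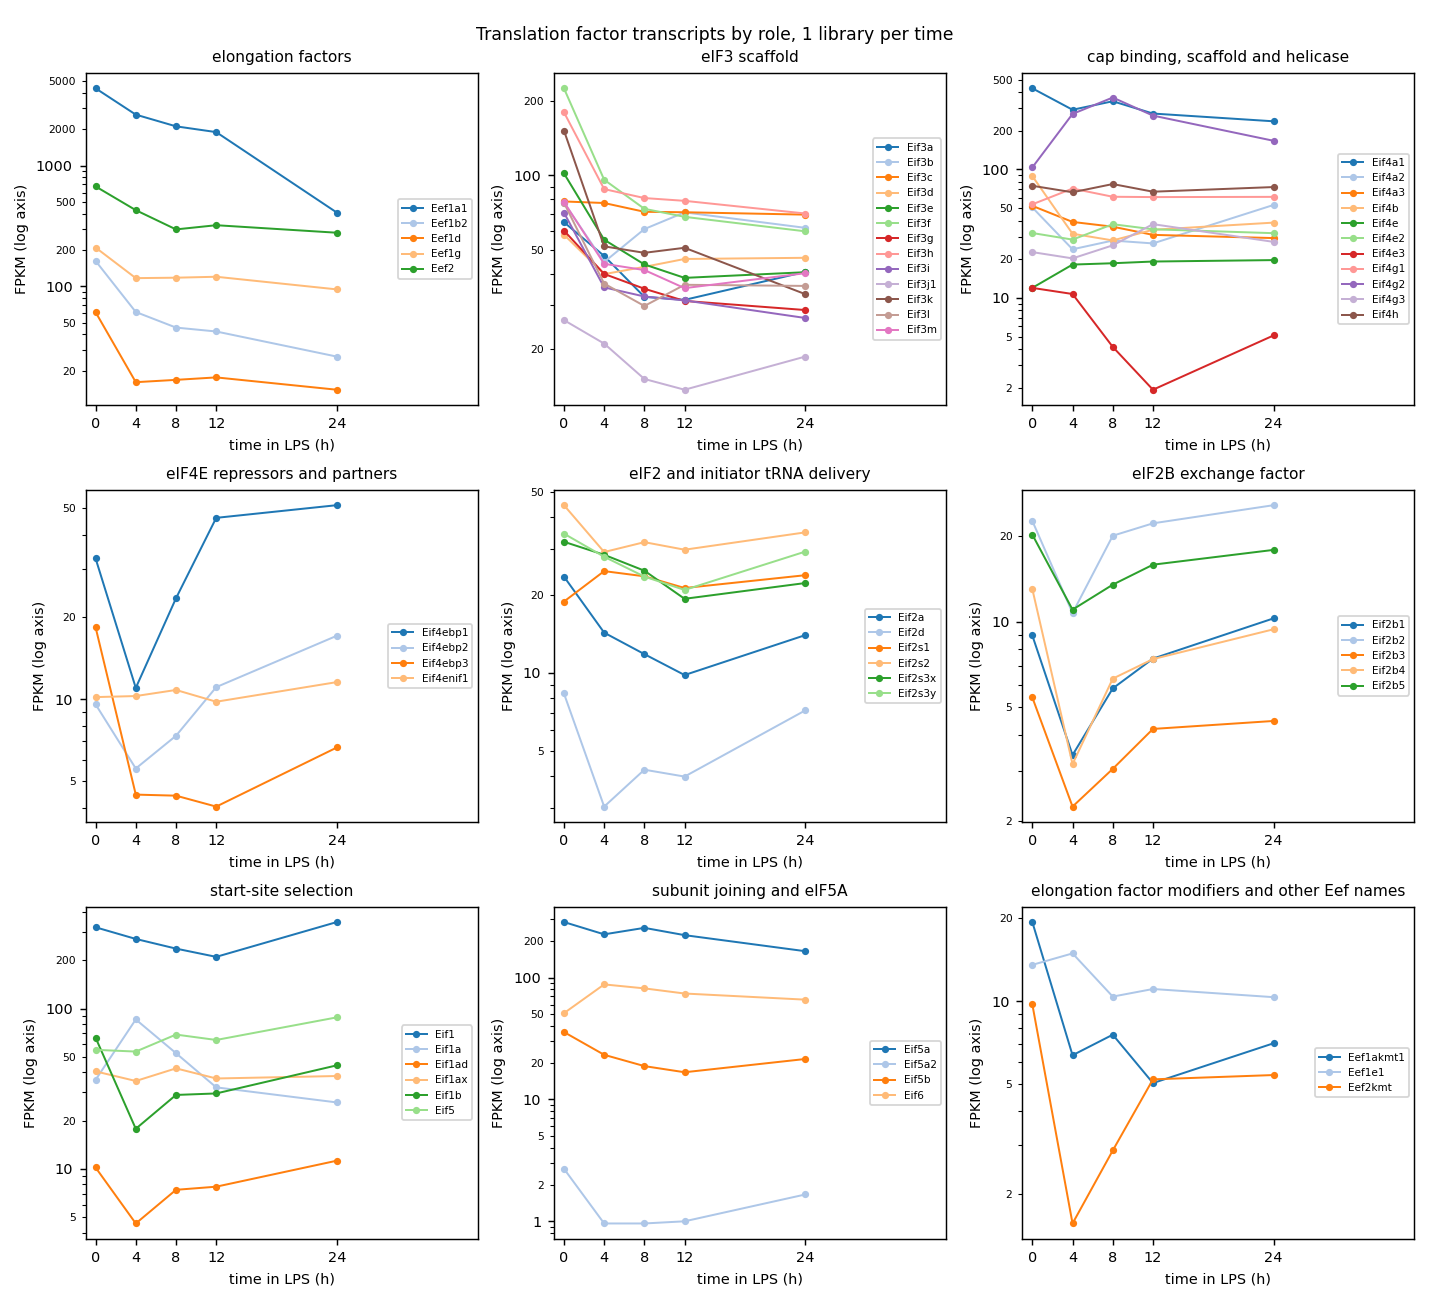
FPKM (log axis) of the 57 members over the filter against time in LPS (h), with 1 panel per role and 1 line per gene; each point is 1 library, so there are no error bars. Eef1a1 stands at 409 FPKM at 24 h, against 4387 at 0 h, the 5 eIF2B subunits have their lowest values at 4 h, and Eif4g2 peaks at 363 FPKM at 8 h.

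Enzymes that modify elongation factors were low as well. Eef2k encodes the kinase that phosphorylates and halts eEF2. It had 3.48, 0.39, 0.10, 0.13 and 0.32 FPKM across 0, 4, 8, 12 and 24 h, and its mean fell short of the 1 FPKM filter. Its 95% counting interval, 0.228 to 0.436 FPKM in the 24 h library, stood apart from that of the 0 h library, 3.16 to 3.82. Eef2kmt, a methyltransferase for eEF2, had 9.73, 1.56, 2.87, 5.20 and 5.39 FPKM across 0, 4, 8, 12 and 24 h. Its difference of -2.07 at 4 h was the lowest of the 57 members and stayed below -1 in centred libraries (-1.37) and with the length trend removed (-1.22), but the gene overlaps Alg1. Eef1akmt1, a lysine methyltransferase for eEF1A, stood at 19.4 FPKM at 0 h and between 5.04 and 7.55 afterwards. Its short transcript of 880 nt matters here, since its difference of -1.47 at 4 h was -0.15 with the length trend removed. Eef1e1, which despite its name encodes a scaffold protein of the tRNA synthetase complex, varied little, between 10.3 and 14.9 FPKM.

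The subunits of eIF3 spread over a range at 24 h, with differences of -0.17 for Eif3c to -2.15 for Eif3k. At 24 h against 0 h, 7 of 13 measured subunits were at least 2-fold lower, beside 14.5% of all genes, and none was higher, with a median difference of -1.04 (-0.93 in centred libraries, with 5 lower, and -0.72 with the length trend removed, with 2 lower). Eif3k, which encodes a subunit of the scaffold, had 151.6, 51.8, 48.8, 51.1 and 33.3 FPKM across 0, 4, 8, 12 and 24 h. Eif3f, part of the octameric core, had 224, 96.1, 73.4, 68.1 and 59.6 FPKM across 0, 4, 8, 12 and 24 h. Both remained over 2-fold lower at 24 h with the length trend removed, at -1.41 and -1.75. Eif3h had 179.5, 88.1, 81.1, 79.0 and 70.3 FPKM across 0, 4, 8, 12 and 24 h, and Eif3e had 101.9, 55.1, 43.8, 38.7 and 40.8. Both encode further subunits of that octamer. Eif3g, Eif3i and Eif3l were also more than 2-fold lower at 24 h, though within 2-fold with the length trend removed, as were Eif3e and Eif3h. The core scaffold subunit Eif3c lay nearest to 0 h at 4 h and at 24 h, with 78.6, 77.4, 71.4, 71.1 and 69.5 FPKM across 0, 4, 8, 12 and 24 h. Eif3b, which together with Eif3a nucleates the complex, had 77.7, 44.8, 60.8, 71.0 and 61.5 FPKM. Eif3d had 57.7, 40.1, 42.9, 46.1 and 46.6 FPKM. Eif3a had 64.9, 47.4, 32.5, 31.6 and 40.9, and Eif3m, of the octamer, 78.2, 44.1, 41.6, 35.2 and 40.4, and both were called lower at 12 h (-1.02 and -1.13) but not at 24 h (-0.65 and -0.93). At 4 h 4 of 13 subunits were lower, beside 38.1% of all genes, and the median of -0.81 was -0.12 in centred libraries and turned to 0.09 with the length trend removed, so at that time they stood about where genes of their length did.

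Within a library the levels of the 13 subunits drew closer. At 24 h they ran from 18.7 FPKM (Eif3j1) to 70.3 (Eif3h), a ratio of 3.76, against 26.2 (Eif3j1) to 224 (Eif3f) at 0 h, a ratio of 8.56. At 4, 8 and 12 h this ratio was 4.56, 5.34 and 5.76. Eif3j1 encodes the loosely bound subunit j, and its near copy Eif3j2 was listed at 0 at 0 h and at 0.27 to 0.99 FPKM later. Reads can be divided between these copies by estimate.

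The eIF4F group, which recognises the cap and unwinds the leader, went different ways. Eif4g2 (gene 13690, chromosome 7, 111067985 to 111083030 in GRCm38) encodes a relative of eIF4G that lacks the binding site for eIF4E and supports initiation without the cap complex. It had 103.7, 270, 363, 262 and 167 FPKM across 0, 4, 8, 12 and 24 h, more than 2-fold above 0 h at 4, 8 and 12 h. Its difference of 1.37 at 4 h was 2.07 in centred libraries and 1.49 with the length trend removed. The canonical scaffold Eif4g1 had 53.5, 71.0, 61.3, 60.9 and 61.2 FPKM across 0, 4, 8, 12 and 24 h. Eif4g3, its close relative, had 22.7, 20.3, 25.7, 37.5 and 27.3. The ratio of Eif4g2 to Eif4g1 was 1.94, 3.81, 5.92, 4.31 and 2.73 across 0, 4, 8, 12 and 24 h.

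The cap-binding protein gene Eif4e had 11.98, 18.2, 18.6, 19.2 and 19.7 FPKM across 0, 4, 8, 12 and 24 h, above 0 h by less than 2-fold at each time. At 4 h centred libraries put it 1.26 above, and removal of the length trend 0.97, within 2-fold. Its relative Eif4e2, which competes for caps, had 32.0, 28.4, 37.5, 34.2 and 31.9 FPKM. Eif4e3, another cap-binding relative, had 11.97, 10.7, 4.16, 1.93 and 5.11 FPKM across 0, 4, 8, 12 and 24 h. Eif4e was 9.95 times Eif4e3 at 12 h, against 1.001 times at 0 h. The Eif4e3 locus overlaps the gene Gpr27.

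Helicase components differed between paralogs. Eif4a1, the main helicase of eIF4F, had 428, 291, 339, 272 and 237 FPKM across 0, 4, 8, 12 and 24 h. Its paralog Eif4a2 had 50.6, 23.9, 28.0, 26.6 and 52.9 FPKM across 0, 4, 8, 12 and 24 h. The ratio of Eif4a1 to Eif4a2 was therefore 4.48 at 24 h, against 8.46 at 0 h, and stood at 12.2 at 4 h. Eif4a2 overlaps Rfc4 and 5 other annotated genes, and whether reads were counted by strand is not given. Eif4a3, a helicase of the exon junction complex, had 52.1, 39.0, 35.8, 31.0 and 29.2 FPKM. Of the helicase cofactors, Eif4h stayed between 66.4 and 77.0 FPKM, whereas Eif4b had 88.8, 31.6, 28.0, 33.9 and 38.6 FPKM across 0, 4, 8, 12 and 24 h. Eif4b was at least 2-fold lower at 4 h and at 24 h also with the length trend removed (-1.01 and -1.20), though at 4 h it was -0.77 in centred libraries. As a role, 2 of these 11 members were lower and 1 higher at 4 h, beside 38.1% and 12.2% of all genes. The role's median of -0.16 turned to 0.53 in centred libraries and 0.57 with the length trend removed.

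The eIF4E-binding proteins hold eIF4E away from eIF4G until mTOR phosphorylates them. Eif4ebp1 had 32.8, 10.99, 23.4, 46.1 and 51.3 FPKM across 0, 4, 8, 12 and 24 h. It was thus lowest at 4 h and, at 24 h, 1.57 times its 0 h level, a difference of 0.63 that is under 2-fold. Its difference of -1.49 at 4 h was -0.80 in centred libraries and -0.57 with the length trend removed, both within 2-fold. Between 24 h and 4 h its difference was 2.12, the largest among the members. Eif4ebp2 had 9.57, 5.57, 7.34, 11.1 and 17.1 FPKM across 0, 4, 8, 12 and 24 h. At 4 h it was not called lower, at -0.69 beside -0.70 for all genes, and turned to 0.01 in centred libraries. Eif4ebp3, whose transcript is short (744 nt), had 18.3, 4.47, 4.43, 4.04 and 6.65 FPKM. Its difference of -1.82 at 4 h was -1.13 in centred libraries and -0.48 with the length trend removed. Summed over the 3 genes, the binding proteins stood at 60.7, 21.03, 35.2, 61.2 and 75.0 FPKM across 0, 4, 8, 12 and 24 h. Relative to Eif4e in the same library this sum was 5.06, 1.16, 1.89, 3.19 and 3.81 across 0, 4, 8, 12 and 24 h. These are ratios of transcript levels, and say nothing of protein or of phosphorylation. They are not corrected for the length trend, although the transcript of Eif4e (4991 nt) is longer than those of Eif4ebp1 (1997 nt) and Eif4ebp3. Eif4enif1, which carries eIF4E into the nucleus and to sites of messenger storage, had 10.2, 10.3, 10.8, 9.78 and 11.5 FPKM.

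**Figure D3:**
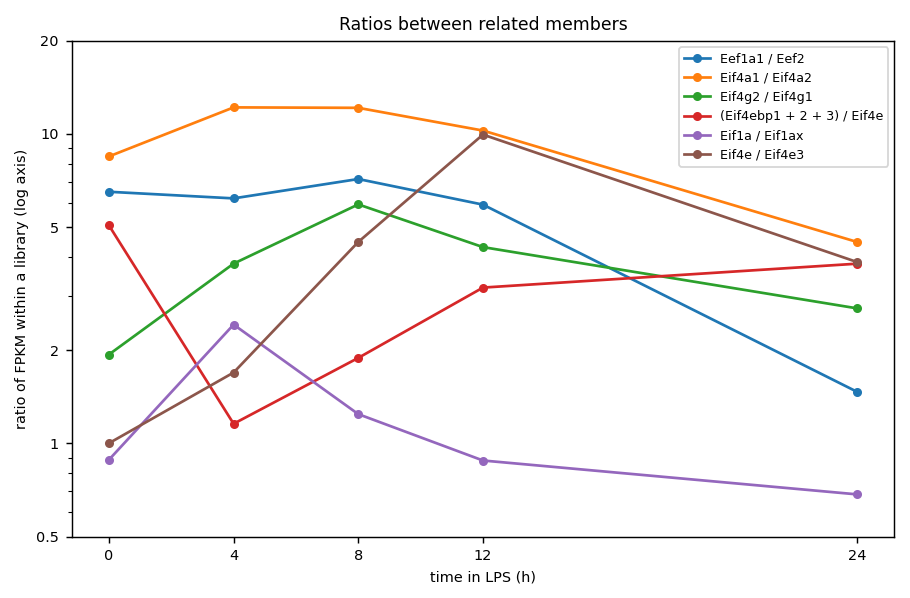
Ratios of FPKM between related members within a library (log axis) against time in LPS (h), 1 library per point, not corrected for the length trend. The sum of Eif4ebp1, Eif4ebp2 and Eif4ebp3 over Eif4e is lowest at 4 h (1.16), Eif1a over Eif1ax is highest at 4 h (2.42), Eif4g2 over Eif4g1 peaks at 8 h (5.92) and Eef1a1 over Eef2 is lowest at 24 h (1.47).

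The subunits of eIF2, the carrier of the initiator tRNA, were within 2-fold of 0 h at each time as deposited. Eif2s1, the alpha subunit that stress kinases phosphorylate, had 18.8, 24.7, 23.6, 21.2 and 23.8 FPKM across 0, 4, 8, 12 and 24 h. Its difference of 0.37 at 4 h was 1.07 in centred libraries and 1.02 with the length trend removed, both past 2-fold. Eif2s2, the beta subunit, had 44.3, 29.2, 31.9, 29.8 and 34.8 FPKM, and its difference of -0.58 at 4 h turned to 0.11 in centred libraries. The gamma subunit is encoded by an X-linked and a Y-linked gene, which stood at like levels: Eif2s3x had 32.0, 28.5, 24.8, 19.3 and 22.2 FPKM, and Eif2s3y 34.4, 28.0, 23.5, 20.9 and 29.3. These copies are close in sequence and their reads are divided by estimate. Eif2a, an alternative initiator tRNA carrier, had 23.5, 14.3, 11.8, 9.79 and 13.96 FPKM. Eif2d, which can also recycle subunits, had 8.31, 3.04, 4.22, 3.97 and 7.15 FPKM, and overlaps Rassf5. The median of the 6 members of this role was -0.44 at 4 h, which turned to 0.26 in centred libraries and 0.29 with the length trend removed. At 24 h none of them was 2-fold apart from 0 h (median -0.28).

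All 5 subunits of eIF2B, which reloads eIF2 with GTP and is the point that phosphorylated eIF2 blocks, had their lowest value at 4 h. Eif2b4, the delta subunit, had 13.0, 3.16, 6.31, 7.39 and 9.41 FPKM across 0, 4, 8, 12 and 24 h. Eif2b1, the alpha subunit, had 8.95, 3.40, 5.83, 7.42 and 10.3 FPKM across 0, 4, 8, 12 and 24 h. Eif2b2, the beta subunit, had 22.6, 10.7, 20.1, 22.2 and 25.7 FPKM, and the catalytic subunit Eif2b5 had 20.2, 11.03, 13.5, 15.9 and 17.9. Eif2b3 had 5.42, 2.24, 3.04, 4.2 and 4.48 FPKM. At 4 h 3 of 5 were at least 2-fold lower than at 0 h, beside 38.1% of all genes, with a median of -1.01 that was -0.31 in centred libraries (1 of 5 lower) and -0.29 with the length trend removed (0 of 5). At 24 h none was 2-fold apart (median -0.17). Between 24 h and 4 h 3 of 5 were called higher, beside 25.0% of all genes, and the median was 1.19, beside 0.49 for all genes. Eif2b2 turned to 0.04 at 4 h with the length trend removed. The median between 24 h and 4 h was 0.70 in centred libraries and 0.65 with the length trend removed, where no subunit reached 2-fold.

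Among factors of start-site selection Eif1a was higher and Eif1b lower at 4 h (differences of 1.23 and -1.83). Eif1a, 1 of a pair of genes for the scanning factor eIF1A, had 35.9, 85.6, 52.7, 32.3 and 26.0 FPKM across 0, 4, 8, 12 and 24 h. At 4 h it was 1.92 above 0 h in centred libraries and 1.996 above with the length trend removed. The X-linked Eif1ax had 40.6, 35.4, 42.4, 36.7 and 37.98 FPKM, so the ratio of Eif1a to Eif1ax was 0.885, 2.42, 1.24, 0.880 and 0.684 across 0, 4, 8, 12 and 24 h. Eif1, the fidelity factor of scanning, had 322, 272, 237, 210 and 347 FPKM, with its highest value at 24 h. Its paralog Eif1b, with a short transcript of 1035 nt, had 65.9, 17.8, 28.9, 29.6 and 44.3 FPKM across 0, 4, 8, 12 and 24 h. Its difference at 4 h was -1.14 in centred libraries and, within 2-fold, -0.55 with the length trend removed. Eif1 was 15.3 times Eif1b at 4 h, against 4.88 times at 0 h. Eif5, which triggers GTP hydrolysis on eIF2, had 55.3, 54.0, 68.9, 63.7 and 88.2 FPKM across 0, 4, 8, 12 and 24 h, a difference of 0.66 at 24 h. Eif1ad, a relative of eIF1A that overlaps Banf1, had 10.2, 4.57, 7.41, 7.75 and 11.3 FPKM. The median of the role at 4 h, -0.22, turned to 0.48 in centred libraries and 0.34 with the length trend removed.

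Among factors of subunit joining, Eif6 lay above 0 h and Eif5b below it in the 4 later libraries as deposited, and only Eif5b at 12 h (-1.05) reached 2-fold. Eif6 keeps free large subunits from joining too early. It had 51.04, 87.9, 81.6, 74.0 and 65.9 FPKM across 0, 4, 8, 12 and 24 h. Its difference at 4 h, 0.77, was 1.47 in centred libraries and 1.76 with the length trend removed. Eif5b, the GTPase that joins the subunits, had 35.8, 23.3, 18.8, 16.7 and 21.5 FPKM. Its difference of -0.60 at 4 h turned to 0.10 in centred libraries, and its difference of -0.71 at 24 h was -1.05 with the length trend removed. Eif5a, whose hypusine-bearing product helps ribosomes past difficult stretches, had 286, 226, 256, 223 and 165 FPKM, and its rare paralog Eif5a2 had 2.70, 0.96, 0.96, 1 and 1.66. The 4 members under the filter were Eef2k and Eif3j2, given above, and Eef1a2 and Eif4e1b. Eef1a2, the eEF1A of muscle and neurons, stood at 0 to 0.87 FPKM, and Eif4e1b, an oocyte relative of Eif4e, at 0.06 to 0.15 FPKM.

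The TOP list has 9 members. Of these, Eef1a1, Eef1b2, Eef1d, Eef1g and Eef2 are all 5 elongation factors over the filter, already described above. The others are Eif3e, Eif3f, Eif3h and Eif4b. For the elongation factors, list and role therefore cannot be told apart. The 9 members of the TOP list were lower as a set than the other members at late times. At 24 h against 0 h 9 of 9 were at least 2-fold lower, with a median of -1.34, while 7 of 48 other members were, with a median of -0.32, beside 14.5% and -0.11 for all genes. In centred libraries 9 of 9 and 4 of 48 were lower, beside 12.3% of all genes. With the length trend removed 6 of 9 and 2 of 48 were, beside 10.1%. Eif3k (-2.15) and Eif3i (-1.38), which are not on that list, were lower than its median. Of the eIF3 subunits outside the list 4 of 10 were lower at 24 h, with a median of -0.79. In centred libraries 2 of these subunits were lower, and with the length trend removed 1. At 4 h 5 of 9 on the TOP list were lower, beside 38.1% of all genes. Their median of -1.02 was -0.32 in centred libraries and turned to 0.09 with the length trend removed. At 12 h the median was -1.36 with 8 of 9 lower, beside 21.5% of all genes. In centred libraries 5 were lower, beside 12.9%, and with the length trend removed 4, beside 10.3%. The list was drawn up with results of these data known, and it gets no test.

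Other parts of the translation apparatus differed in their late course. Cytosolic ribosomal proteins were taken by symbol, as Rpl or Rps and a digit, Rplp or Rpsa, leaving out Rps6k. The symbols also took in Rps19bp1, named as a binding protein, and the entries Rpl34-ps1, Rpl31-ps12 and Rpl37rt. This set had medians of -1.33, -1.49, -1.72 and -2.37 in the 4, 8, 12 and 24 h libraries. At 24 h 82 of 85 were called lower, beside 14.5% of all genes. With the length trend removed the medians were -0.13 at 4 h and -1.62 at 24 h, with 0 and 72 of 82 lower. As deposited, these ribosomal proteins stood below the TOP-list factors at each time. With the length trend removed the order turned at 8 h (-0.49, against -0.70 for the TOP list) and at 12 h (-0.75, against -0.81). Of all genes 38.1% were lower at 4 h and 14.5% at 24 h, and 13.4% and 12.3% when centred. With the length trend removed these shares were 12.0% and 10.1%. Aminoacyl-tRNA synthetases, which charge tRNAs, had a median of -1.05 at 4 h and -0.13 at 24 h, with 18 of 31 and 0 of 31 lower (3 of 31 at 4 h when centred). Their medians were -0.54 and -0.07 with the length trend removed, with 4 and 0 lower. Mitochondrial ribosomal proteins stood at -1.21 and -0.57, with 50 and 15 of 77 lower (23 and 11 when centred). Removal of the length trend put them at -0.29 and -0.02, with 11 and 5 lower. Beside these, the eIF2B subunits had medians of -1.01 and -0.17 at 4 h and 24 h, and the elongation factors -0.84 and -2.06.

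**Figure D4:**
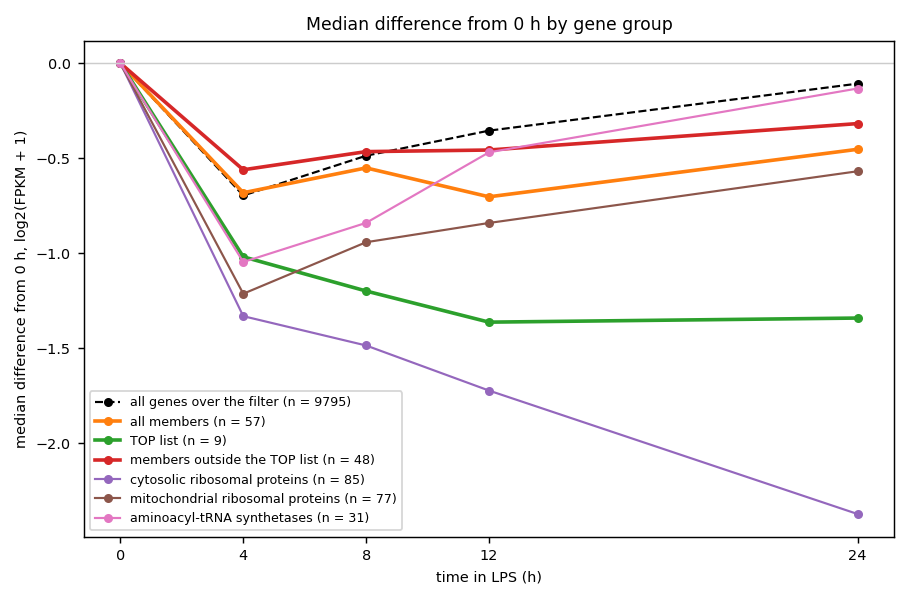
Median difference from the 0 h library in log2(FPKM + 1), against time in LPS (h), for all members, the TOP list, the other members, 3 related gene groups and all genes over the filter (dashed). At 24 h the cytosolic ribosomal proteins are at -2.37 and the TOP list at -1.34, while the other members are at -0.32 and all genes at -0.11; at 4 h the TOP list median of -1.02 turns to 0.09 with the length trend removed.

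Length of the transcript went with the difference among members as among all genes. The 28 members with the shortest transcripts (744 to 2515 nt) had a median of -0.93 at 4 h and -0.89 at 24 h, and the 29 with the longest (2542 to 8134 nt) had -0.30 and -0.17. Across the 57 members, which share 2 libraries and are not independent, Spearman's rho between length and the difference was 0.429 at 4 h and 0.505 at 24 h, and 0.287 and 0.320 across all genes with a known length. At 24 h Eef1a1, Eef1b2, Eef1d, Eif3f and Eif3k remained at least 1.41 below genes of their length. The part that length plays in the other differences was not tested.

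**Figure D5:**
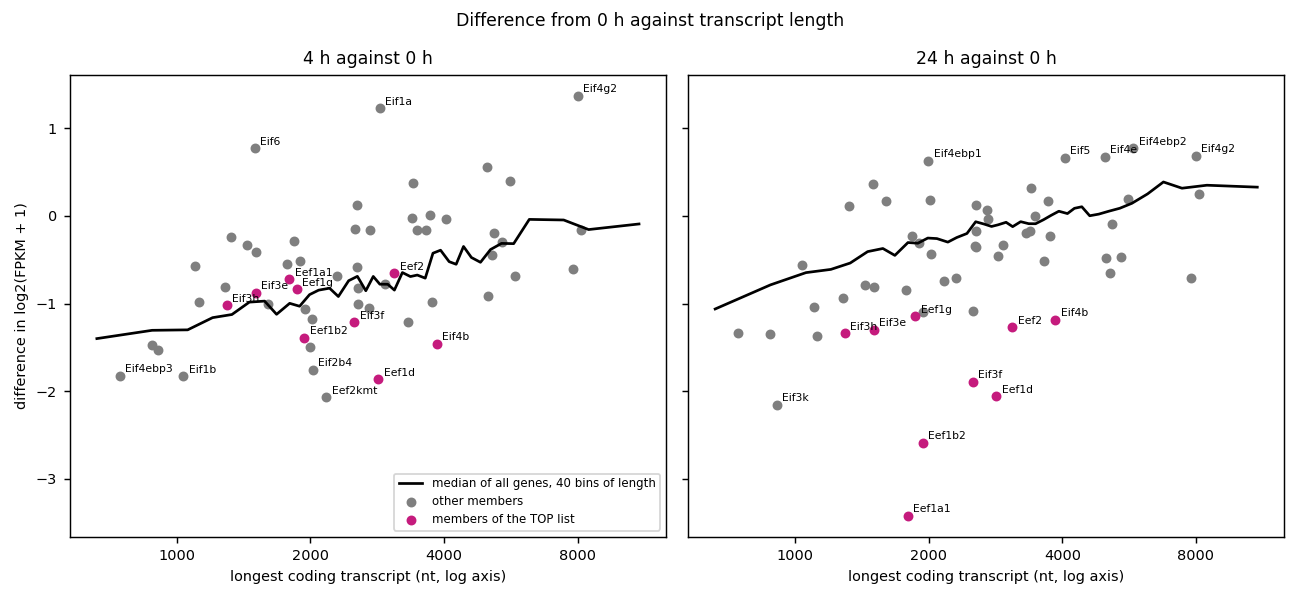
Difference from the 0 h library in log2(FPKM + 1) at 4 h and at 24 h against the longest coding transcript in nt (log axis), for members of the TOP list and other members; the black line is the median of all genes in 40 bins of length. At 4 h, with the length trend removed, Eef1d is at -1.11 and Eif4b at -1.01 while Eef1a1 is at 0.29; at 24 h Eef1a1 (-3.42), Eef1b2 (-2.59), Eef1d (-2.06) and Eif3f (-1.89) lie well below it.

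Regulators of these factors, taken from lists of the pathway, included some of the widest differences. Of 9 genes for eIF2 kinases and the eIF2 phosphatase, 3 were at least 2-fold higher and 4 lower at 4 h, beside 12.2% and 38.1% of all genes, so the share that was lower lay near that of all genes. At 24 h 3 were higher and 0 lower, beside 11.3% and 14.5% (4 and 1 at 4 h in centred libraries, 3 and 2 without the length trend). Eif2ak2, the RNA-activated kinase PKR and an interferon-stimulated gene, had 9.50, 126, 79.4, 71.0 and 59.0 FPKM across 0, 4, 8, 12 and 24 h. The stress kinases Eif2ak3 and Eif2ak4 were lowest at 4 h, at 0.64 and 0.72 FPKM, against 5.01 and 4.49 at 0 h. Ppp1r15b, which targets a phosphatase to eIF2, had 92.5 FPKM at 4 h and 17.0 at 0 h, and its stress-induced relative Ppp1r15a 73.9 and 15.6. These directions held in centred libraries and with the length trend removed.

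Of 10 genes of mTOR and MNK input to initiation, 1 was higher and 5 were lower at 4 h, near the 12.2% and 38.1% of all genes. In centred libraries these were 1 and 3 at 4 h, beside 21.5% and 13.4%. Without the length trend they were 1 and 4, beside 19.8% and 12.0%. At 24 h 0 were higher and 1 lower, beside 11.3% and 14.5% of all genes. Larp1, the protein that binds TOP messengers, had 28.7, 124, 84.3, 74.9 and 41.1 FPKM across 0, 4, 8, 12 and 24 h. Mknk2, a kinase for eIF4E, had 67.8, 2.61, 7.64, 29.7 and 39.5 FPKM across 0, 4, 8, 12 and 24 h. Pdcd4, an inhibitor of the eIF4A helicase, had 7.29 FPKM at 0 h and 0.18 to 1.06 later. The next 3 lists had shares at 4 h near or below the 38.1% of all genes that were lower. At 24 h 14.5% of all genes were lower. Of 5 genes for poly(A)-binding proteins and their partners 2 were lower at 4 h and 1 at 24 h (at 4 h 1 higher and 0 lower under either scaling), with Paip2, an inhibitor of the poly(A)-binding protein, at 14.8 FPKM at 4 h and 47.9 at 0 h. Of 7 release and recycling factors 2 were lower at 4 h and 0 at 24 h. Pelo, which rescues stalled ribosomes, had 2.87 FPKM at 4 h and 9.53 at 0 h, within 2-fold under either scaling. At 4 h under either scaling 0 were lower and 3 higher, beside the 21.5% and 19.8% of all genes. These 3 were Gspt1 (29.7 FPKM at 4 h, 14.7 at 0 h), Denr (33.5 and 17.5) and Etf1 (56.9 and 38.1). The list of hypusine and diphthamide enzymes, which modify eIF5A and eEF2, had 3 of 9 lower at 4 h (0 under either scaling) and 1 at 24 h, the hydroxylase gene Dohh with 11.1 FPKM at 24 h and 26.4 at 0 h. Mitochondrial translation factors had 7 of 9 lower at 4 h, beside 38.1% of all genes, and 0 of 9 at 24 h, beside 14.5%. Their median at 4 h was -1.18, and -0.48 in centred libraries and -0.27 with the length trend removed. Under either scaling none was lower by 2-fold at 4 h.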

How the data were processed

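RNA of 5 libraries was sequenced on the BGISEQ-500 platform, per the labels' protocols. Values are FPKM as the authors deposited them, with 2 decimals, in 1 table with a column for each library, per the file headers. The submitters' processing notes name Bowtie2, RSEM and GRCm38 and give no version. Annotation, filters and strand are not stated there. Such values are shares of a library, so a gene's value is lower where others take more reads, and reads that match several copies are divided by estimate.

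The members and lists were chosen with earlier results of these data known. Differences of log2(FPKM + 1) were computed in Python 3.11.15 with numpy 2.4.6 and pandas 2.3.3 for genes with a mean of at least 1 FPKM, without a test, since each time had 1 library. Folds are ratios of FPKM. All members were described by role, with values in each library for the extremes and the most abundant member of a role, for members 2-fold higher and for paralogs; Gpr27, Rfc4, Rassf5, Alg1, Tigd5 and Banf1 are named only as overlapping genes in RefSeq, where 13 of 61 members overlapped a coding gene. Pathway genes were named from the widest 2 in a direction at 4 or 24 h, and many of those are left out here. Ppp1r15a and Etf1 are named although they were not among the widest 2.

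Each gene took the length of its longest coding transcript (GENCODE M21), known for 96.8% of genes over the filter, and its trend was a running median over 501 genes. For depth, low values of genes with 1 transcript of 400 to 2500 nt, reduced by 40 nt, were compared with multiples of the value of 1 read over 8 to 40 M reads. In the best match 55.1% to 64.0% of values came within 0.04 reads of a whole number, or within the rounding where that was larger, against 25.1% to 26.4% by chance at a fixed step. The step was chosen for the best match, so the depth is an estimate, and no count test was run. The counting step and the trend removal were tested on simulated data.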

Additional observations from a re-analysis of the deposited data

How the results depend on the processing

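Pseudocounts of 0.1 and 5, no filter or a mean of at least 5 FPKM, libraries centred on the median gene and removal of the length trend were tried. The counts of members moved by no more than 1.5 times with a pseudocount of 0.1 and with either filter. With a pseudocount of 5, 11 members were lower at 4 h against 0 h (19.3%), beside 20.2% of all genes. At 24 h against 4 h 4 were higher (7.02%), beside 8.57% of all genes. In centred libraries 6 were higher and 5 lower at 4 h, 4 and 6 at 8 h, 2 and 9 at 12 h, and 1 and 8 at 24 h against 4 h. With the length trend removed these were 4 and 3 at 4 h, 3 and 4 at 8 h, 2 and 6 at 12 h, 8 lower at 24 h against 0 h, and 2 and 9 at 24 h against 4 h. The median of the members at 4 h turned to 0.0145 in centred libraries and 0.11 with the length trend removed. Among members lower at 4 h, Eif2b2 turned to 0.0441 and Eif3h to 0.089 with the length trend removed. No other member past 2-fold at 4 h or 24 h turned its direction under these alternatives, although 34 of 171 values crossed the 2-fold line in centred libraries and 39 with the length trend removed. The cause of these shifts was not tested. No paired analysis was possible because each time point was 1 library and no model was fitted. The deposited FPKM give no depth, and the estimated 18.8 to 19.2 M reads limit most the members under 1 FPKM, such as Eef1a2 and Eif4e1b, and also low values of members over the filter, 10 of which had counting intervals wider than 20% to a side, for Eif4ebp3, Eif5a2, Eef2kmt, Eef1akmt1 and Eif4e3.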
